A study of Rattus norvegicus with 12 samples.

Results

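The amino acid transporters described here are SLC38A3, SLC7A10, SLC7A8 and SLC3A2, measured by RNA-seq in the choroid plexus of the rat. They were chosen as named members of this transporter group, and their identifiers are those that 3 of the study's supplementary gene tables pair with the symbols. Of 5 members named in this way, 4 had an identifier among the 32883 genes of the files. SLC38A2 had none, so it was dropped and no value is given for it. The identifiers are ENSRNOG00000016827 for SLC38A3, ENSRNOG00000010938 for SLC7A10, ENSRNOG00000014311 for SLC7A8 and ENSRNOG00000018487 for SLC3A2. SLC7A10 and SLC7A8 were paired only through tables that list genes the study had called different on these same libraries, so a difference in them is not independent of how they were found. SLC38A3 was paired through a further table too, but the study had also called it different on these libraries. Its difference below is therefore not independent of that call.

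The choroid plexus is the secretory epithelium of the brain ventricles, which makes cerebrospinal fluid and separates it from blood. Most amino acids are kept at lower levels in this fluid than in plasma, and transporters on both faces of the epithelium carry amino acids in and out. SLC38A3 (SNAT3) moves glutamine, asparagine and histidine together with sodium and in exchange for a proton. SLC7A10 (ASC-1), a carrier of glycine, alanine and L- and D-serine, and SLC7A8 (LAT2), an exchanger of neutral amino acids, are transport subunits that reach the cell surface only when joined to SLC3A2, the heavy chain also known as 4F2hc or CD98.

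All 12 libraries were from male Sprague-Dawley rats of 9 weeks under ketamine and xylazine anesthesia, with no genetic change or other treatment in either group, and each library holds whole choroid plexus tissue from the lateral ventricles and the fourth ventricle. In the light phase, 6 rats were sampled at zeitgeber time 8, that is 8 h after lights on. In the dark phase, 6 other rats were sampled at zeitgeber time 20, 8 h after lights off, in darkness with a red lamp lit at times. Only these times were sampled, so a time course cannot be drawn from them.

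The tissue label was checked against 10 markers of the choroid plexus epithelium, and all 10 were detected, led by TTR (transthyretin) at 253710 to 309722 TPM. TPM is a level corrected for transcript length and scaled to the same sum in every library. The 10 markers summed to 264704 to 315162 TPM in light-phase libraries and 298665 to 322530 TPM in dark-phase libraries, and 5 of them were called different by the test described below (CLIC6, KL, OTX2 and PRLR higher in the dark phase, AQP1 in the light phase). Of all tested genes, 17.8% were called. CLIC6, KL, PRLR and AQP1 were among the genes that the study had called different on these same libraries. Light-phase replicate 2 stood apart, with the lowest TTR (253710 TPM, against 299818 to 304180 TPM in the other light-phase libraries) and the highest HBB, the beta chain of hemoglobin (5535 TPM, against 1406 to 1956 TPM). Fold changes of the members without it are given below. Markers of astrocytes, neurons and macrophages could not be paired with identifiers (0 of 8, 0 of 6 and 0 of 6), which matters because SLC38A3 and SLC7A10 are also known from astrocytes. In the remaining lists, FLT1 was the 1 of 6 endothelial markers paired (11.8 to 14.4 TPM by light and 15.3 to 17.7 TPM in darkness), HYDIN the 1 of 5 ependymal markers (18.3 to 20.7 and 19.0 to 24.6 TPM), ADIPOQ the 1 of 5 adipocyte markers (124 to 198 and 140 to 167 TPM) and HBB the 1 of 4 red blood cell markers (839 to 2190 TPM in the dark phase). The 2 of 6 fibroblast markers summed to 135 to 216 and 145 to 228 TPM. Of these non-epithelial markers FLT1 passed the test (log2 fold change 0.35, limma FDR = 0.000208), and the others did not. FLT1 and HYDIN were paired only through a table of genes that the study had called different on these same libraries. The call of FLT1 is therefore not independent of how it was found. The part of other cell types in the results below was not tested, and in whole tissue fewer cells of a type and less RNA per cell cannot be told apart.

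SLC38A3 and SLC7A10 were lower in the dark phase, SLC7A8 was higher in the dark phase, and SLC3A2 did not pass the test. The fold changes are dark minus light on a log2 scale, after the libraries were scaled to each other and 0.5 TPM was added, and the test was limma with Benjamini-Hochberg adjustment (FDR) over 12513 genes, those averaging 1 TPM or more. All 4 members were among these genes. At an FDR below 0.05, 3 of the 4 were called, 2 with more transcript by light and 1 with more in darkness. With summed FPKM over summed TPM of each library as a covariate, 1 member, SLC7A8, was called, and the values are given for each gene below. Among all tested genes 17.8% were called, 8.34% higher by light and 9.5% higher in darkness. In TPM as deposited, the phases did not overlap for 2 of the 4 members, as for 8.26% of all tested genes. The median log2 fold change of the 4 members was -0.36, beside -0.009 over all tested genes, and as the members were named with results of these data known, the count and median are descriptions.

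The transporter of glutamine came first in level. SLC38A3 had 232, 205, 205, 262, 245 and 209 TPM in light-phase replicates 1 to 6. In dark-phase replicates 1 to 6 it had 148, 145, 143, 156, 168 and 137 TPM. Every light-phase library thus lay above every dark-phase library, also after scaling. Light-phase libraries averaged 226 ± 23.9 TPM and dark-phase libraries 150 ± 11.2 TPM (SD, 6 per phase), so expression fell by 33.9% from light to dark. Limma estimated this as -0.61 on the log2 scale, with a standard error of 0.08, a 95% interval from -0.78 to -0.44 and FDR = 0.000278. Of all tested genes, 96.8% had a smaller change in either direction, and in 3.14% every light-phase library lay above every dark-phase library. By mean TPM, SLC38A3 held rank 434 among all genes by light and rank 664 in darkness. Without light-phase replicate 2 its log2 fold change was -0.65 (limma FDR = 0.000205), and with the covariate it was -0.35 (limma FDR = 0.0636).

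SLC7A10, the carrier of small neutral amino acids including D-serine, had the largest fold change of the 4 members and also the largest spread. Its light-phase values were 39.4, 61.5, 21.2, 57.8, 45.6 and 45.1 TPM in replicates 1 to 6. The dark-phase values were 26.4, 17.9, 25.6, 20.2, 25.8 and 25.2 TPM. Light-phase replicate 3, at 21.2 TPM, lay within the dark-phase range, while the other 5 light-phase libraries lay above all 6 dark-phase libraries. From 45.1 ± 14.4 TPM by light it fell by 47.8% to 23.5 ± 3.57 TPM in darkness (SD, 6 per phase). The limma estimate was -0.88 on the log2 scale, with a standard error of 0.21, a 95% interval from -1.34 to -0.42 and FDR = 0.0129, and 98.7% of the tested genes had a smaller fold change.

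The spread of SLC7A10 was uneven between the phases. The coefficient of variation, the SD as a percentage of the mean, was 31.8% by light and 15.2% in darkness. For comparison, genes within a factor of 2 of its level had medians of 7.34% and 6.29%, and 89.1% of the tested genes varied less in the light phase. Without light-phase replicate 3 the log2 fold change was -1.08 (standard error 0.13, limma FDR = 0.000233). Without light-phase replicate 2, the highest in TPM as deposited, it was -0.80 (limma FDR = 0.0243). Without light-phase replicate 4, the highest after scaling (61.4 TPM), it was -0.78 (limma FDR = 0.0297). With the covariate it was -0.92 with a standard error of 0.35 (limma FDR = 0.188). In TPM as deposited, 3 of the 4 members had their lowest light-phase value in light-phase replicate 3. The exception was SLC38A3, in which replicate 2 was lower by less than 1 TPM. After scaling, replicate 2 was the lowest for SLC38A3 (197 TPM, against 205 TPM in replicate 3) and also for SLC7A8 (40.5 against 40.9 TPM).

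SLC7A8, the exchanger of neutral amino acids, went the other way. It had 43.1, 42.2, 40.9, 45.9, 45.4 and 41.4 TPM in light-phase replicates 1 to 6. In the dark phase it had 57.5, 56.3, 52.6, 48.1, 55.4 and 55.5 TPM in replicates 1 to 6. In TPM as deposited, the lowest dark-phase library exceeded the highest light-phase one, a separation in this direction that 5.12% of the tested genes had. After scaling, light-phase replicate 4 (48.8 TPM) passed dark-phase replicate 4 (48.4 TPM), so that the phases overlapped by this pair. The mean of SLC7A8 rose by 25.7%, from 43.2 ± 2.09 by light to 54.2 ± 3.43 TPM in darkness (SD, 6 per phase). On the log2 scale limma put the increase at 0.31, with a standard error of 0.05, a 95% interval from 0.19 to 0.42 and FDR = 0.0019. Its coefficients of variation were 4.84% by light and 6.32% in darkness. Genes within a factor of 2 of its level had medians of 6.9% and 5.89%. Without light-phase replicate 2 the log2 fold change was 0.28 (limma FDR = 0.00418), and with the covariate it was 0.37 (limma FDR = 0.0383).

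SLC3A2, the heavy chain that both SLC7A10 and SLC7A8 need to reach the membrane, had overlapping phases. Its light-phase values were 119, 150, 113, 133, 117 and 115 TPM in replicates 1 to 6. The dark-phase values were 121, 107, 116, 108, 124 and 124 TPM. Replicates 2 and 4 of the light phase exceeded every dark-phase library, and the other 4 lay within the dark-phase range. Light-phase libraries averaged 125 ± 14.3 TPM and dark-phase libraries 117 ± 7.54 TPM (SD, 6 per phase). The limma log2 fold change was -0.11, with a standard error of 0.07, a 95% interval from -0.25 to 0.03 and FDR = 0.287, and without light-phase replicate 2 it was -0.07 (limma FDR = 0.446).

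**Figure D1:**
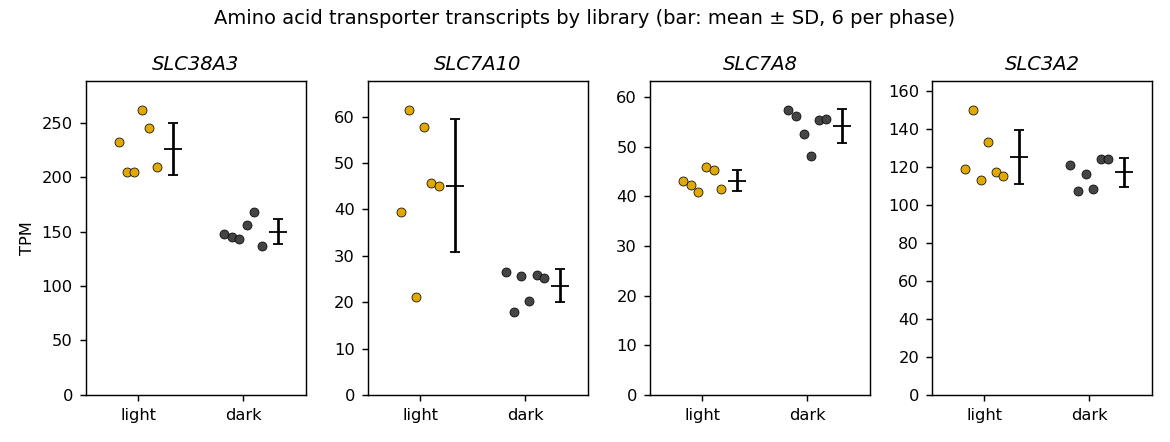
TPM (y axis, from 0) of SLC38A3, SLC7A10, SLC7A8 and SLC3A2 in each of the 6 light-phase (yellow) and 6 dark-phase (gray) libraries, with the mean ± SD beside the points. SLC38A3 is higher in all light-phase libraries, SLC7A8 in all dark-phase libraries, 1 light-phase library of SLC7A10 (21.2 TPM) sits among the dark-phase points, and SLC3A2 overlaps.

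The levels of the transporters can be set beside each other because TPM corrects for length. SLC38A3 exceeded SLC3A2 in 6 of 6 light-phase and 6 of 6 dark-phase libraries, by 1.37 to 2.09 times and 1.1 to 1.44 times. SLC3A2 in turn exceeded SLC7A8 in all 12 libraries, by 2.58 to 3.55 times and by 1.90 to 2.25 times. The order of SLC7A8 and SLC7A10 differed with the phase. In the light phase SLC7A8 was the higher of the pair in 2 of 6 libraries, and their ranges overlapped. In the dark phase SLC7A8 was higher in 6 of 6 libraries. The ratio of SLC7A8 to SLC7A10 ran from 0.686 to 1.93 by light (median 0.956) and from 2.05 to 3.15 in darkness (median 2.2).

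SLC7A5 (LAT1), the exchanger of large neutral amino acids such as leucine, is another transport subunit that joins SLC3A2, and it was measured in the same libraries. It had 30.8, 36.6, 25.2, 27.7, 23.3 and 24.9 TPM in light-phase replicates 1 to 6. In dark-phase replicates 1 to 6 it had 21.0, 19.1, 17.1, 16.9, 21.1 and 15.3 TPM, so the phases did not overlap. Its mean fell by 34.4%, from 28.1 ± 4.91 to 18.4 ± 2.35 TPM (SD, 6 per phase), and limma gave -0.61 on the log2 scale with a standard error of 0.1 and FDR = 0.00156. Like SLC7A10 and SLC7A8, SLC7A5 was paired only through tables of genes that the study had called different on these same libraries. SLC7A6, SLC7A7 and SLC7A11, other partners of SLC3A2, could not be paired with an identifier. That each subunit measured here differed between the phases is thus not independent of how it was found.

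Relative to SLC3A2 in the same library, SLC7A8 stood at 35.0 ± 3.61% by light and 46.6 ± 3.11% in darkness (SD, 6 per phase, as for the next values). SLC7A10 stood at 35.8 ± 8.99% and 20.1 ± 2.08%, and SLC7A5 at 22.5 ± 2.21% and 15.8 ± 2.03%. With the 3 subunits added up, SLC7A8 made up 30.1 to 46.9% of their summed TPM by light and 54.2 to 60.4% in darkness. SLC7A10 made up 24.3 to 44.0% and 19.2 to 26.9%. The sum of the 3 averaged 116 ± 18.2 TPM by light and 96.2 ± 6.94 TPM in darkness, with overlapping ranges of 87.4 to 140 TPM and 85.2 to 105 TPM. These ratios restate the differences of the single genes and were not tested.

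**Figure D2:**
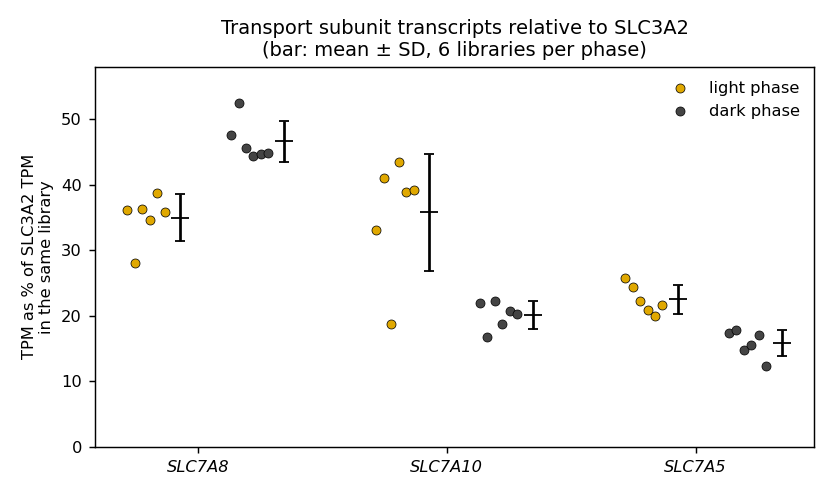
TPM of SLC7A8, SLC7A10 and SLC7A5 as a percentage of SLC3A2 TPM in the same library (y axis, from 0), for 6 light-phase (yellow) and 6 dark-phase (gray) libraries, with the mean ± SD beside the points. SLC7A8 is higher in all dark-phase libraries (44.4 to 52.5%, against 28.1 to 38.7%), and SLC7A5 is lower in all of them (12.4 to 17.8%, against 19.9 to 25.8%).

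Because these subunits of a shared heavy chain differed in direction, the sequences ahead of their start sites are shown. They are the 250 bases before the annotated start, written along the gene's strand, from the RefSeq promoter table of the build GRCr8, which is not the build of the expression files, matched by symbol. The windows are chr1:96965872-96966121, plus strand for SLC7A10, chr15:32212716-32212965, minus strand for SLC7A8 and chr19:66872413-66872662, minus strand for SLC7A5. Capitals mark a match to the E-box CACGTG, the sequence bound by CLOCK and BMAL1.
SLC7A10: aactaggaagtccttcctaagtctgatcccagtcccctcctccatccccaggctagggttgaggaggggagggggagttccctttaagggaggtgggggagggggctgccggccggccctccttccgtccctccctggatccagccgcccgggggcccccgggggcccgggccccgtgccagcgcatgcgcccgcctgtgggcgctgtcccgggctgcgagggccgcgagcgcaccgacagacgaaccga
SLC7A8: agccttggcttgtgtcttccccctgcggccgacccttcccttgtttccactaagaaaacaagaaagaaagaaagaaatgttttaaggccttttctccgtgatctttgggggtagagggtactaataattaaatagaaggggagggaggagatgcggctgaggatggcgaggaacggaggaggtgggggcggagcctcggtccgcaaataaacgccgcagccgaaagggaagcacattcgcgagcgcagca
SLC7A5: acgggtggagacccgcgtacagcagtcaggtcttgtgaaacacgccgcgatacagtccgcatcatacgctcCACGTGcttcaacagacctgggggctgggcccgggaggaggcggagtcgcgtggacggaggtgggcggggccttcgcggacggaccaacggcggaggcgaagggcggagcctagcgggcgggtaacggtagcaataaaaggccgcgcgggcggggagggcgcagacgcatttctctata
The E-box CACGTG, which reads the same on both strands, was found at 1 place, starting 179 bases before the start of SLC7A5. Of all 33469 promoter windows of this length, 5.59% held it. Matches on either strand to the D-box letters TTATGTAA (in 0.83% of all windows) and TTACGTAA (0.11%), to the ATF4 element TGATGNAA (3.4%), which includes TGATGCAA (0.69%), and to the glucocorticoid half-site AGAACA (17.5%) numbered 0 in the windows of SLC7A10, SLC7A8 and SLC7A5, and 0 in the pair of windows listed for SLC3A2, in which the E-box was not found either. SLC38A3 had no window in the table. The base composition differed between the windows shown, with G or C at 72.4% of positions for SLC7A10, 53.6% for SLC7A8 and 66.8% for SLC7A5. A match is a match of letters only, and its absence concerns these windows alone.

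Beyond the members, a list of 52 other amino acid transporters and their partners was examined. Of these, 8 could be paired with an identifier, and 7 of the 8 only through tables of genes that the study had called different, so their counts do not represent the list. All 8 were tested. Limma called 5 of them with more transcript by light and 2 with more in darkness, 4 did not overlap between the phases, and the median log2 fold change was -0.35. Over all tested genes, 8.34% were called higher by light and 9.5% higher in darkness, and 8.26% did not overlap between the phases.

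The transporters that were lower in the dark phase were, besides SLC7A5, SLC43A2, SLC1A4, SLC6A15 and SLC7A4. SLC43A2 (LAT4), a carrier of large neutral amino acids that needs no heavy chain, averaged 4.64 ± 0.872 TPM by light and 3.09 ± 0.162 TPM in darkness (SD, 6 per phase, as below), a log2 difference of -0.52 (limma FDR = 0.00488). SLC1A4 (ASCT1), a sodium-dependent exchanger of serine, alanine and cysteine, averaged 2.03 ± 0.328 and 1.26 ± 0.192 TPM, a difference of -0.54 on the log2 scale (limma FDR = 0.00761). Neither of these overlapped between the phases. SLC6A15, a sodium-coupled carrier of branched-chain amino acids and proline, averaged 1.38 ± 0.11 and 0.843 ± 0.348 TPM, with overlapping phases and a difference of -0.53 on the log2 scale (limma FDR = 0.0381). At such low levels the added 0.5 TPM understates the change. SLC7A4, a relative of the cationic amino acid transporters, averaged 35.4 ± 1.74 and 31.5 ± 1.16 TPM without overlap, a log2 difference of -0.19 (limma FDR = 0.0253).

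The pair that was higher in the dark phase, as SLC7A8 was, consisted of SLC6A20 and SLC36A1. SLC6A20 (SIT1), the sodium- and chloride-coupled carrier of proline, rose from 29.3 ± 3.19 by light to 41.4 ± 9.27 TPM in darkness, or by 0.46 on the log2 scale (limma FDR = 0.026). Its dark-phase values ran from 31.7 TPM to 59.1 TPM, the latter in replicate 6, and its lowest dark-phase value lay below the highest light-phase value of 34.1 TPM. SLC36A1 (PAT1), a proton-coupled carrier of small amino acids that is also found in lysosomes, rose from 8.06 ± 0.738 to 11.1 ± 1.55 TPM, or by 0.42 on the log2 scale (limma FDR = 0.00919). CLTRN (collectrin), a partner protein of transporters of the SLC6 family, was the most abundant of the 8 at 370 ± 46.0 and 331 ± 17.2 TPM and did not pass the test, with a log2 difference of -0.17 (limma FDR = 0.146). Calls of SLC7A4, SLC6A15 and SLC6A20 were close to the threshold. When each of the 12 libraries was left out in turn, they were called in 8, 3 and 9 of 12 fits, while SLC7A5, SLC43A2, SLC1A4 and SLC36A1 were called in 12 of 12.

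**Figure D3:**
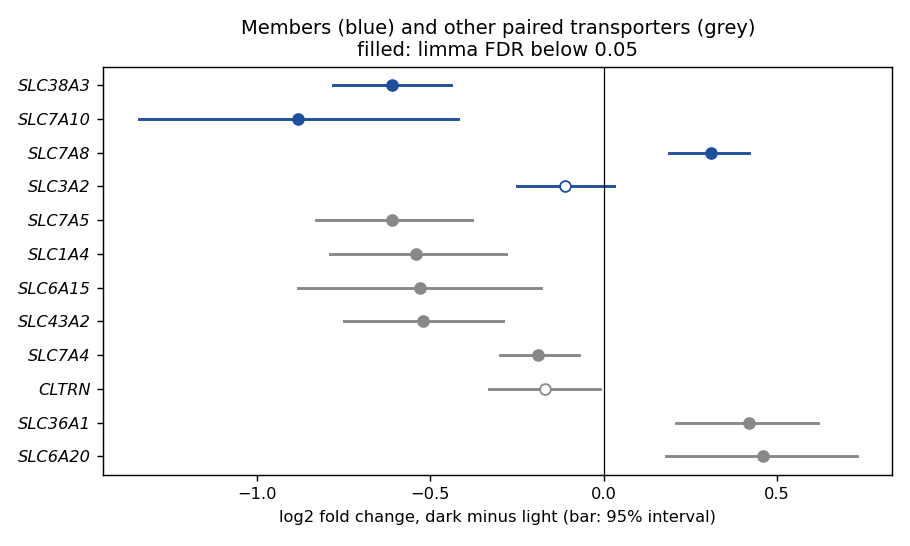
Log2 fold change, dark minus light, with its 95% interval (x axis) for the 4 members (blue) and the 8 other transporters or partners with an identifier (gray), filled where the limma FDR was below 0.05. SLC7A10 has the widest interval (-1.34 to -0.42), and the intervals of SLC7A8, SLC36A1 and SLC6A20 lie above 0.

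Genes of the amino acid response, through which cells raise transporter genes such as SLC7A5, SLC3A2 and SLC38A2 when amino acids are scarce, were taken from a list of 24. Of these, 6 were paired, 3 of them (CEBPB, VLDLR and DDIT3) only through the tables of called genes. Limma called 1 in each direction, CEBPB and VLDLR, so both calls fell on genes paired only in that way. Among all tested genes 17.8% were called. ATF4, the transcription factor at the centre of this response, averaged 172 ± 16.3 TPM by light and 158 ± 6.84 TPM in darkness (SD, 6 per phase), a log2 difference of -0.14 (limma FDR = 0.0999). It did not pass here, whereas the study's own test had called ATF4 different on these same libraries. CEBPB, a transcription factor that ATF4 induces, rose from 24.6 ± 5.39 to 41.2 ± 6.37 TPM (limma FDR = 0.00144), and VLDLR, a lipoprotein receptor, fell from 20.7 ± 1.6 to 18.1 ± 1.08 TPM (limma FDR = 0.0167). DDIT3, a further factor of the response, had a log2 fold change of 0.20 (limma FDR = 0.0628). The median log2 fold change of the 6 was 0.03.

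Of 15 enzymes that make or use the substrates of these transporters, 6 were paired, 3 of them only through the tables of called genes. GLUL, glutamine synthetase, averaged 183 ± 16.8 by light and 180 ± 8.7 TPM in darkness (SD, 6 per phase), a log2 difference of -0.04 (limma FDR = 0.653). Limma called GOT1, the cytosolic aspartate aminotransferase, higher in the dark phase (log2 fold change 0.16, limma FDR = 0.0163), and GOT2, its mitochondrial counterpart, higher in the light phase (-0.10, limma FDR = 0.0321). Of all tested genes, 17.8% were called. The study had also called GOT1 and GOT2 different on these same libraries. GCLM, the modifier subunit of the first enzyme of glutathione synthesis, had a log2 fold change of 0.15 (limma FDR = 0.118). The median of the 6 was 0.04.

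The genes with the pattern most like that of each member were found by Pearson's r of log2 values over the 12 libraries. The r is a description, since it holds the shared difference between the phases, and r of the deviations from the phase means is given beside it. Only 3607 of the 12513 tested genes had a symbol and could be named, 66.6% of the called genes and 20.6% of the others. Most like SLC38A3 were CFAP300 (r = 0.974, within phases 0.835), XRCC1 (0.973 and 0.895) and CFAP52 (0.966 and 0.799). CFAP52, a protein of cilia and flagella, fell from 64.3 to 45.1 TPM (log2 fold change -0.52, limma FDR = 0.00031), CFAP300 from 257 to 219 TPM, and XRCC1, a scaffold of DNA strand break repair, from 25.3 to 22.8 TPM. Most like SLC7A8 were CGNL1 (r = 0.960, within phases 0.874), KL (0.957 and 0.806) and SLC20A2 (0.943 and 0.739). CGNL1, paracingulin of epithelial junctions, rose from 152 to 187 TPM, KL, the anti-aging protein klotho, from 524 to 649 TPM, and SLC20A2, a phosphate transporter, from 134 to 177 TPM.

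**Figure D4:**
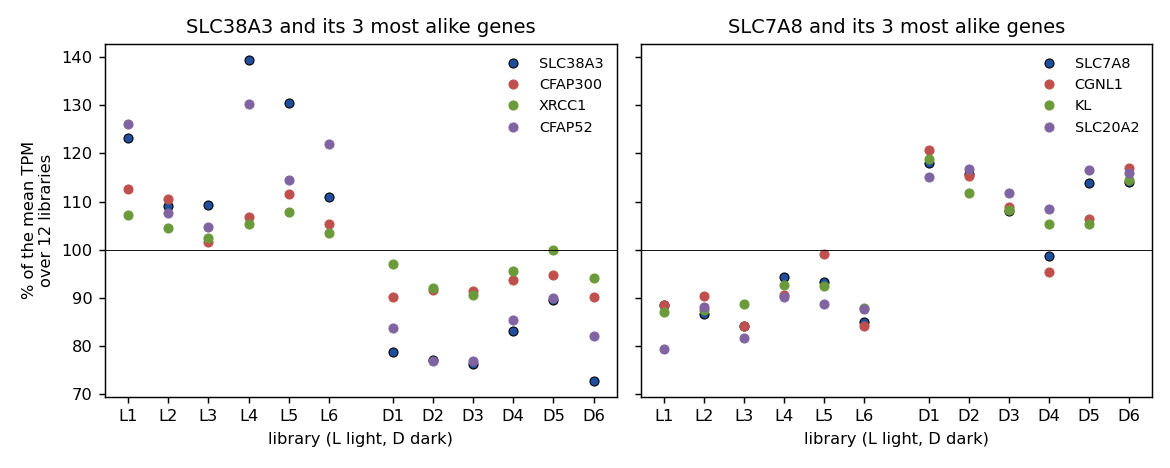
TPM in each library as a percentage of the gene's mean over the 12 libraries (y axis), for SLC38A3 (left) and SLC7A8 (right, both outlined in black) with the 3 genes of highest Pearson's r, in light-phase libraries L1 to L6 and dark-phase libraries D1 to D6. In dark-phase library D4, SLC7A8 (48.1 TPM) and CGNL1 (161.4 TPM) have their lowest dark-phase values.

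The genes most like SLC7A10 were ITGB6 (r = 0.923, within phases 0.810), an integrin subunit of epithelia, VLDLR (0.912 and 0.784) and MXD3 (0.904 and 0.779), a partner of the transcription factor MAX. Those most like SLC3A2 were MXD3 (r = 0.852, within phases 0.875), SLC48A1 (0.835 and 0.824), a heme transporter, and SERINC3 (0.826 and 0.788). MXD3, which both lists hold, had its highest TPM as deposited in light-phase replicate 2 (69.2 TPM), as did SLC7A10 and SLC3A2. The same held for ITGB6 (54.5 TPM), VLDLR (23.4 TPM), SLC48A1 (78.7 TPM) and SERINC3 (131.2 TPM). That library stood apart in TTR and HBB, and r was not computed without it.

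The summed FPKM of a library, divided by its summed TPM, falls as the abundance-weighted transcript length grows, and it moved with the phase. This quotient ran from 0.953 to 0.987 by light and from 0.934 to 0.960 in darkness. It is the covariate whose values are given with SLC38A3, SLC7A10 and SLC7A8. The part of transcript length in these differences was not tested.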

How the data were processed

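RNA of choroid plexus of rats was measured in 12 libraries, 6 per phase. The authors aligned paired-end reads to Rnor_6.0 with STAR 2.7.9a and quantified genes with RSEM 1.3.3, and deposited TPM and FPKM per gene. The TPM values were used as deposited by the authors, and the FPKM values deposited beside them served only to divide the summed FPKM of a library by its summed TPM. Numbers of reads were not recovered from these units, so precision rests on the spread between libraries. Limma on log values was therefore used in place of the count-based test of the study.

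Each library was scaled by a trimmed mean of ratios (30% of ratios and 5% of levels trimmed at each end), and log2(TPM + 0.5) of 12513 genes, those averaging 1 TPM or more, was fitted with the phase alone, moderated variances and a trend, in R 4.3.3 with limma 3.58.1. Genes with an FDR below 0.05 were called. Phases were said not to overlap on TPM as deposited. The pipeline was tested on simulated data, and 0 pairs of libraries were identical (correlations 0.958 to 0.983). Figures and promoter searches used Python 3.11.15 with numpy 2.4.6, pandas 2.3.3 and matplotlib 3.10.9.

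Symbols came from 3 supplementary gene tables of the study, of which 2 were held in part, and a symbol with several identifiers was not used. Members, lists and tests were chosen with earlier results of these data known. The genes named are the members, every called transporter of the list and the most abundant others, the genes of the remaining lists that were called or had the smallest p, and for each member the 3 most alike genes with a symbol. ATF4 and GLUL were added after their values were seen. The markers of 1 further cell type are not reported here. Alternatives were other pseudocounts, filters, scalings, weights and variance models, a replicate block, a covariate, an exact permutation test and leaving out each library.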

Additional observations from a re-analysis of the deposited data

Results flagged for a closer look

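Values that stood apart from the other libraries of their phase, by the size of their gap relative to the range, were looked for in 80 groups (40 genes in each phase). There were 5, where chance alone gives 1 in 20, or 4. None concerned a member of the group. SLC6A20 had 59.1 TPM in dark-phase replicate 6, against 31.7 to 41.4 TPM in the other dark-phase libraries. In light-phase replicate 2, CEBPB had 35.1 TPM (20.1 to 24.4 TPM in the others), TTR 253710 TPM (299818 to 304180 TPM) and HBB 5535 TPM (1406 to 1956 TPM). GSS, glutathione synthetase, had 16.2 TPM in dark-phase replicate 3 (20.1 to 21.9 TPM in the others).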

How the results depend on the processing

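SLC7A8 remained called and SLC3A2 not called, each without a change of sign, under all 23 alternatives. For SLC38A3 and SLC7A10 this held for 22 of 23, the exception being a covariate for summed FPKM over summed TPM, with log2 fold changes of -0.35 and -0.92 (limma FDR = 0.0636 and 0.188), so that 1 member was called. The cause was not tested. With each library left out in turn, log2 fold changes ranged from -0.65 to -0.55 for SLC38A3, from -1.08 to -0.78 for SLC7A10, from 0.28 to 0.34 for SLC7A8 and from -0.14 to -0.07 for SLC3A2. Two-sided exact permutation tests over the 12 libraries gave p = 0.00216 for SLC38A3, the smallest they can give, 0.0108 for SLC7A10, 0.00433 for SLC7A8 and 0.184 for SLC3A2. SLC38A2 had no identifier and was not run.

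Of the other transporters, the covariate left 0 called with more transcript in darkness and 1 with more by light (SLC7A5). For those no longer called, the log2 fold changes under it were 0.49 for SLC6A20, 0.45 for SLC36A1, -0.48 for SLC43A2, -0.46 for SLC1A4, -0.53 for SLC6A15 and -0.07 for SLC7A4, with limma FDR from 0.155 to 0.668. A mean of at least 5 TPM left 2 called higher by light, because SLC43A2, SLC1A4 and SLC6A15 fell below it and were not tested. The replicate block left 3 called higher by light. With each library left out, 1 to 2 were called higher in darkness (1 without light-phase replicates 1 or 5 or dark-phase replicate 4), and 3 to 6 by light (3 without light-phase replicates 5 or 6 or dark-phase replicate 3). Over all tested genes, the covariate left 212 called higher in darkness and 129 by light, against 1189 and 1043 (922 to 1159 and 790 to 1112 with a library left out). Libraries with the same number share only that number, with correlations of deviations from -0.107 to 0.047, and 0 of 6 light-phase libraries correlated best with their own number. With the replicate block, the log2 fold changes of the members were -0.61, -0.88, 0.31 and -0.11 for SLC38A3, SLC7A10, SLC7A8 and SLC3A2, and no call of a member changed.

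Read depth is not known from TPM, so the counting error of genes near 1 TPM, SLC6A15 and SLC1A4 among them, could not be separated from the spread between libraries.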
